A study of Homo sapiens with 5 samples.

Results

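The cluster of miR-302 and miR-367 was followed after depletion of PLEKHA7, a protein of the apical adherens junction, in Caco2 cells, an epithelial line from a human colon carcinoma. Its members were taken by exact name as the probes hsa-miR-302a, hsa-miR-302b, hsa-miR-302c, hsa-miR-302d and hsa-miR-367, which are 5 of the 734 miRNA probes of a NanoString nCounter human panel. On that platform a reporter barcode is bound to each target and counted without amplification. Both groups were transduced with an shRNA and selected: NT cells received a non-target shRNA (n = 2, replicates 1 and 3) and shPLEKHA7 cells a PLEKHA7-targeting shRNA (n = 3, replicates 1, 2 and 3). The design text describes independent sets of infections, 1 targeting shRNA is named, and the source field of shPLEKHA7 replicates 2 and 3 ends in other numbers, so the titles were followed. PLEKHA7 itself has no probe on the panel, and its depletion was not analysed here.

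The members of this cluster are cut from a single primary transcript. They are best known as the dominant miRNAs of human embryonic stem cells, where the pluripotency factors OCT4 and SOX2 drive their transcription, and their levels drop on differentiation. The miR-302 members repress, among others, inhibitors of the cell cycle and components of TGF-beta signalling. A miRNA recognises its targets mainly through its seed, bases 2 to 8, so miRNAs with equal seeds share many predicted targets. miR-367 has a different seed from its cluster neighbours and shares it with miR-25, miR-32 and miR-92.

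The measured arms are printed because they set what the probes had to tell apart. The deposited target sequences of all 5 members equalled 1 RefSeq mature miRNA each, the 3p arm of its hairpin (RefSeq, GRCh38.p14). They are written 5′ to 3′ as RNA, in order of transcription, with the seed in capitals.
miR-302b: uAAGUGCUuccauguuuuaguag
miR-302c: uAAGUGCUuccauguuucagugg
miR-302a: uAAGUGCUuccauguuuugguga
miR-302d: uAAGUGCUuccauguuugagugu
miR-367: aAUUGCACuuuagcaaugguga

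The 4 miR-302 members are 23 bases long and identical over their first 17 bases, seed included, and differ only in the last bases. Counting from the 5′ end, miR-302a differs from miR-302d at 3 positions (U18G, G19A and A23U) and from miR-302b at 3 (G19A, G22A and A23G), while miR-302b and miR-302c differ at 2 (U18C and A22G). How far each probe also binds its neighbours' sequences was not tested. The mature sequences matched GRCh38.p14 on the minus strand at chr4:112648489-112648511 (miR-302b), chr4:112648366-112648388 (miR-302c), chr4:112648186-112648208 (miR-302a), chr4:112648006-112648028 (miR-302d) and chr4:112647877-112647898 (miR-367). The 5 hairpins lie within 684 bases, inside the host transcript MIR302CHG, a long non-coding RNA, and inside the span of the protein-coding gene LARP7, which is transcribed from the opposite strand. The miR-302a hairpin shows where the counted arm sits, with that arm in capitals.
miR-302a hairpin: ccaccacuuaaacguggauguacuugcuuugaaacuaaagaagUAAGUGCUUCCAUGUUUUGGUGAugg

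Lanes held between 32138 and 58298 miRNA counts in total. The limit of detection, the mean plus 2 SD of a lane's 8 negative-control probes, ran from 11 to 24.45 counts. Synthetic spike-ins, added to every lane in a set amount, gave 7686 and 10656 counts in NT and 14017, 10670 and 14239 in the shPLEKHA7 lanes. Numbers at the end of the lane names, if they are positions, put both NT lanes first, so position and group cannot be told apart. Probes capture their targets with unequal and unknown efficiency, so counts of different miRNAs are not ranked against each other. In bulk RNA, more cells with a miRNA and more miRNA per cell cannot be told apart.

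The cluster's miR-302a and miR-302d were higher in shPLEKHA7 than in NT cells. miR-302a rose 1.89-fold. For miR-302d the fitted value was 2.18-fold, from NT counts below the limit of detection, and its shPLEKHA7 mean was 1.81 times the mean NT limit. miR-302b stood 1.69-fold higher and miR-302c 1.34-fold higher, but neither passed the test, and miR-367 was below the limit of detection in all 5 lanes. With edgeR's quasi-likelihood test and an adjusted p under 0.05, 2 of the 4 members tested were called higher and none lower. Over all 204 tested probes 2.45% were called higher and 6.37% were called in either direction. A probe was tested if it was above the limit in at least 2 lanes, and miR-302c and miR-302d met this only through the shPLEKHA7 lanes. Among the members above the limit in every lane, 1 of 2 was called.

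**Figure D1:**
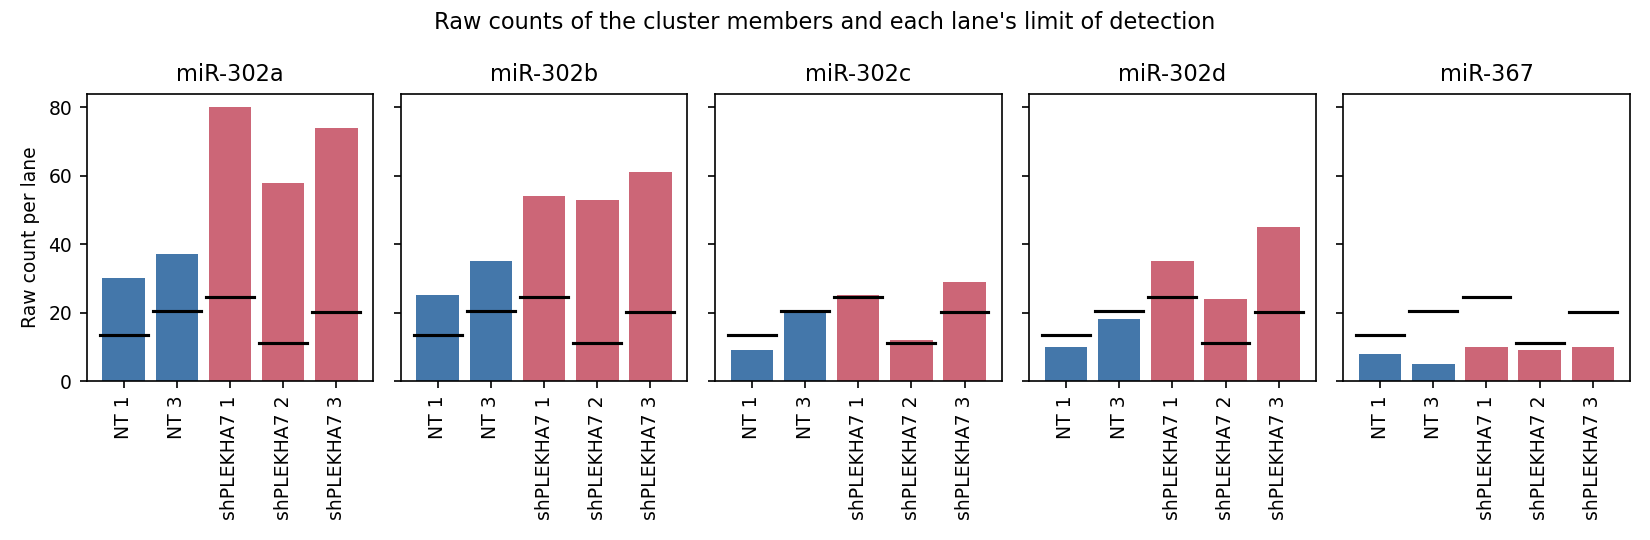
Raw count per lane (y axis) of the 5 members in the NT lanes (blue) and the shPLEKHA7 lanes (red), with each lane's limit of detection as a black line. miR-302a and miR-302b stand above the line in all 5 lanes, miR-302c and miR-302d only in the 3 shPLEKHA7 lanes, and miR-367 in none.

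hsa-miR-302a had raw counts of 30 and 37 in NT replicates 1 and 3, and of 80, 58 and 74 in shPLEKHA7 replicates 1, 2 and 3. Both NT lanes were low and all 3 shPLEKHA7 lanes high, with no overlap. The exact 95% Poisson interval of the higher NT count reached 51.0 and that of the lowest shPLEKHA7 count began at 44.0. These intervals cover counting error only and are not scaled for depth. The totals were 50372 miRNA counts in NT replicate 3 and 32138 in shPLEKHA7 replicate 2. TMM-normalized counts, which correct for lane depth, were 38.0 and 34.8 in NT and 73.0, 79.7 and 56.0 in shPLEKHA7 cells. The group means were 36.4 ± 2.3 (SD, n = 2) and 69.5 ± 12.2 (SD, n = 3). The log2 fold change was 0.92 (SE 0.22, adjusted p = 0.0399). The call was lost under deposited scaling (adjusted p = 0.114), spike-in scaling (log2 0.57, adjusted p = 0.192), limma (0.135), no filter (0.169), and without NT replicate 1 (0.151) or NT replicate 3 (0.164). It held when only probes above the limit in every lane were tested (log2 0.97, SE 0.23, adjusted p = 0.0415), and over all alternatives the adjusted p ran from 0.0124 to 0.192.

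hsa-miR-302d, which differs from miR-302a only in its last bases, had raw counts of 10 and 18 in the NT lanes and of 35, 24 and 45 in the shPLEKHA7 lanes. Its normalized counts were 12.7 and 16.9 in NT and 31.9, 33.0 and 34.0 in shPLEKHA7 cells. The shPLEKHA7 lanes lay close together and apart from both NT lanes. Their spread was smaller than counting alone gives on average (chi-square of 0.0806 on 2 degrees of freedom), and that of miR-302b was larger (6.81). The group means of miR-302d were 14.8 ± 3.0 (SD, n = 2) and 33.0 ± 1.1 (SD, n = 3), with a log2 fold change of 1.13 (SE 0.25, adjusted p = 0.0317). Both NT counts were below their lanes' limits of 13.41 and 20.59, so the NT level is not measured above background. The shPLEKHA7 mean was 1.81 times the mean normalized NT limit of 18.2 counts, a ratio given without an interval. Subtracting each lane's mean negative-control count left 3.88 and 10.5 counts in the NT lanes. The log2 fold change was then 1.76 (SE 0.40, edgeR adjusted p = 0.0228, range over settings with every sample kept 0.0109 to 0.149). This larger value rests on NT counts that were below the limit, so it is no separate support. A probe for a viral miRNA, hcmv-miR-UL112, chosen after its values were seen, had the same detection pattern, with raw counts of 13 and 13 in NT and of 28, 27 and 40 in shPLEKHA7 cells (log2 1.10, SE 0.29, adjusted p = 0.0602). Its part in the miR-302d result was not tested.

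hsa-miR-302b, the first hairpin of the transcript, had raw counts of 25 and 35 in the NT lanes and of 54, 53 and 61 in the shPLEKHA7 lanes, without overlap. Its normalized counts were 31.7 and 32.9 in NT and 49.2, 72.8 and 46.1 in shPLEKHA7 cells. As for miR-302a, shPLEKHA7 replicate 2 had the highest normalized count of the lanes. The means were 32.3 ± 0.86 (SD, n = 2) and 56.1 ± 14.6 (SD, n = 3). The log2 fold change of 0.75 (SE 0.25, adjusted p = 0.115) did not pass the threshold. The groups of miR-302a, miR-302b and miR-302d did not overlap, each with shPLEKHA7 higher, as was so for 26% of all 204 tested probes.

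hsa-miR-302c had raw counts of 9 and 20 in the NT lanes and of 25, 12 and 29 in the shPLEKHA7 lanes, where it exceeded the limits of 24.45, 11 and 20.21 only narrowly in replicates 1 and 2. Its normalized counts were 11.4 and 18.8 in NT and 22.8, 16.5 and 21.9 in shPLEKHA7 cells, so the groups overlapped. Here shPLEKHA7 replicate 2 was the lowest of its group, unlike in miR-302a and miR-302b. The means were 15.1 ± 5.2 (SD, n = 2) and 20.4 ± 3.4 (SD, n = 3), at a log2 fold change of 0.42 (SE 0.33, adjusted p = 0.515). Without NT replicate 3 this was 0.91, and without NT replicate 1 it was 0.15.

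hsa-miR-367, the last hairpin and the only member with another seed, had raw counts of 8 and 5 in the NT lanes and of 10, 9 and 10 in the shPLEKHA7 lanes. Every one was below its lane's limit and also below the highest negative-control probe of its lane, which counted from 10 to 24. No level or fold is given for it, and a change was not detectable at this depth.

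**Figure D2:**
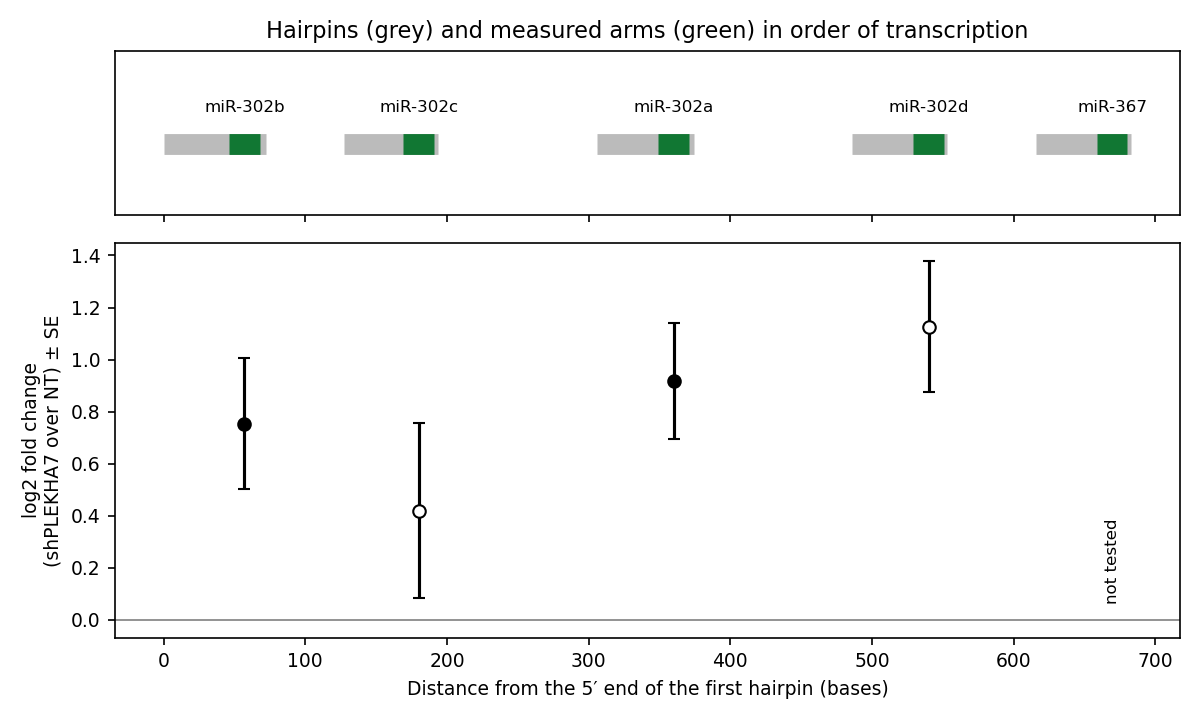
The upper panel maps the 5 hairpins (grey) and the measured arms (green) by distance in bases from the 5′ end of the first hairpin; the lower panel gives each member's log2 fold change of shPLEKHA7 over NT ± SE. Filled points (miR-302b at 0.75, miR-302a at 0.92) were above the limit in both NT lanes, open points (miR-302c at 0.42, miR-302d at 1.13) in neither, and miR-367 was not tested.

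By position, the fitted values of the transcript's hairpins were 0.75, 0.42, 0.92 and 1.13 from the 5′ end, with SEs of 0.22 to 0.33. The called members were set against each other within lanes, where scaling has no part. Both NT counts of miR-302d are below the limit of detection, so its NT ratios are not measured above background, and the smallest p the design allows is 0.1, so this comparison could not pass the threshold. The log2 ratio of miR-302d to miR-302a was -1.58 and -1.04 in NT and -1.19, -1.27 and -0.72 in the shPLEKHA7 lanes, so the groups overlapped. It was 0.25 higher in shPLEKHA7 cells (2-sided exact permutation p = 0.6 over 10 splits, adjusted p = 0.6 over 2 ratios). Without NT replicate 1 the difference was -0.022, and after background subtraction it was 0.81 (exact permutation p = 0.1). The summed normalized count of miR-302a to miR-302d was 93.8 and 103.4 in NT and 176.9, 201.9 and 158.0 in the shPLEKHA7 lanes. This sum is a description, since it holds the called members.

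The miR-302 calls moved with the scaling and with the samples used. With every sample kept, 6 of 10 other settings called miR-302a, at log2 fold changes from 0.57 to 1.08 and adjusted p from 0.0124 to 0.192. For miR-302d, 4 of 8 did, from 0.80 to 1.76, the highest after background subtraction, which lowered NT counts already below the limit. miR-302b was called in 1 of 9, under scaling to total miRNA counts (log2 0.82, adjusted p = 0.0455, range over its settings 0.0455 to 0.384), and miR-302c in 0 of 8. Without NT replicate 1 the log2 fold changes of miR-302a, miR-302b, miR-302c and miR-302d were 0.98, 0.73, 0.15 and 0.96. Without NT replicate 3 they were 0.89, 0.82, 0.91 and 1.42. With 1 NT sample left, the spread among NT cells is not measured, so calls of these fits are not read. miR-302d lost its call without shPLEKHA7 replicate 3 (edgeR adjusted p = 0.0759) and kept it without replicate 1 (0.029) or replicate 2 (0.0417). All 4 tested members had positive log2 fold changes in every setting that gave a value. Scaling to spike-ins moved the median of all tested probes from 0.06 to -0.27. A scaling shifts all probes by nearly the same amount, so values relative to that median (0.84 to 0.86 for miR-302a and 1.06 to 1.08 for miR-302d under 5 scalings) are alike by construction and say nothing about stability.

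**Figure D3:**
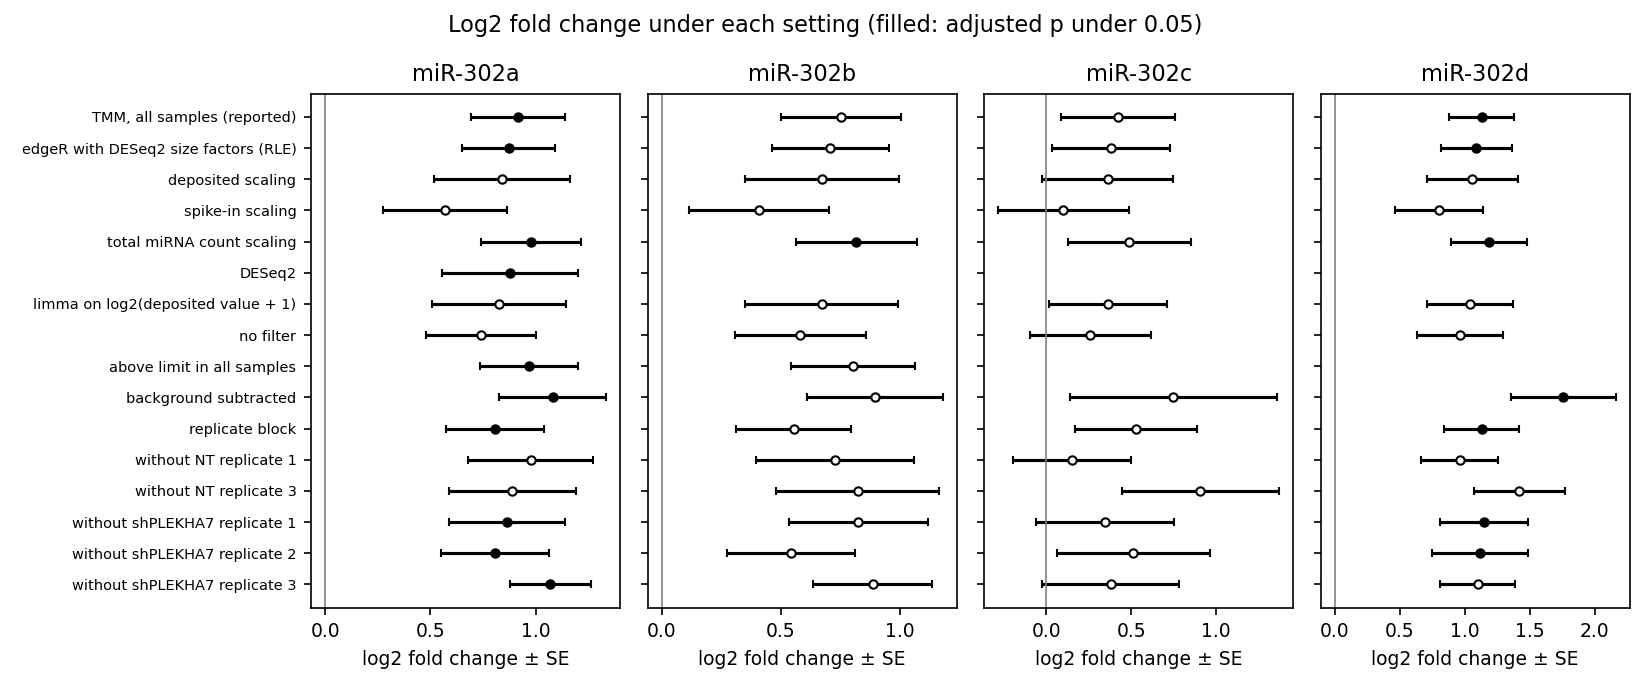
Log2 fold change of shPLEKHA7 over NT ± SE (x axis) of miR-302a, miR-302b, miR-302c and miR-302d under the reported fit and each alternative (y axis), filled where the adjusted p was under 0.05. Every point lies right of 0, and miR-302a and miR-302d are open under deposited and spike-in scaling, limma and no filter. They are also open without either NT sample, where 1 NT sample is too few to read a call. Gaps mark settings with no adjusted p (DESeq2) or not tested.

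Other miRNAs with the miR-302 seed come from other loci. On the panel 8 probes outside the cluster hold AAGUGCU at bases 2 to 8, and with the members 12 of 654 human probes do (1.83%). They are miR-372 and miR-373 of the cluster of miR-371, miR-372 and miR-373, which is likewise known from embryonic stem cells, 5 members of the miR-520 family of the primate placental cluster C19MC, and miR-302e. The sequences of 4 of them are given to show the common seed, in capitals.
miR-372: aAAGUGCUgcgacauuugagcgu
miR-373: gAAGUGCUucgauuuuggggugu
miR-520b: aAAGUGCUuccuuuuagaggg
miR-302e: uAAGUGCUuccaugcuu

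Of these 8 probes only miR-372 and miR-373 were above the limit, and neither was called. miR-373 had normalized counts of 2442 and 2619 in NT and of 2353, 2107 and 2210 in shPLEKHA7 cells. Its shPLEKHA7 lanes were all lower than its NT lanes, at a log2 fold change of -0.19 (SE 0.12, adjusted p = 0.40). miR-372 had 2024 and 2475 in NT and 1847, 1613 and 1979 in shPLEKHA7 cells, at -0.31 (SE 0.14, adjusted p = 0.223). Here too all shPLEKHA7 lanes were lower than both NT lanes. The remaining cluster probes miR-371-3p and miR-371-5p, which have other seeds, were at -0.07 (SE 0.12) and 0.12 (SE 0.16), also without a call. So 0 of 4 probes of that locus passed edgeR's test in the reported fit, with 0 at an unadjusted p under 0.05. miR-372 and miR-373 stayed at negative values in each of the 15 alternatives, with 0 calls by DESeq2 or limma. With edgeR under spike-in scaling, miR-372 stood at -0.64 (SE 0.26, adjusted p = 0.0856) and miR-373 at -0.53 (SE 0.26, adjusted p = 0.184). The median of all tested probes was -0.27 there.

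miR-302a was also set against miR-373, 1 probe of each cluster, within lanes. Since miR-302a is a called member, this ratio restates its difference from NT without scaling and is no separate test of the clusters. The log2 ratio of miR-302a to miR-373 was -6.00 and -6.24 in NT and -5.01, -4.72 and -5.30 in the shPLEKHA7 lanes. All shPLEKHA7 lanes were above both NT lanes. The mean ratio was 1.11 higher in shPLEKHA7 cells (group SDs 0.16 and 0.29; 2-sided exact permutation p = 0.1, the smallest possible, which cannot pass the threshold; adjusted p = 0.2 over 2 ratios). Leaving out single samples gave differences between 0.96 and 1.25.

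miR-302e and miR-302f carry the family's name but lie elsewhere, on chromosomes 11 and 18. miR-302e shares the first 14 bases of miR-302a, and miR-302f has another seed, AAUUGCU. Their raw counts were 6 and 7 (miR-302e) and 8 and 7 (miR-302f) in the NT lanes. In shPLEKHA7 replicates 1, 2 and 3 they were 3, 5 and 12 for miR-302e and 11, 4 and 16 for miR-302f. All 10 values were below the limits, in the same lanes where miR-302a counted 30 to 80. The 5 miR-520 probes, at raw counts from 3 to 16, were below the limit in every lane as well.

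Relatives of miR-367 were measured better than miR-367 itself. Outside the cluster 5 probes share its seed, and 4 of them were above the limit in all lanes.
miR-92a: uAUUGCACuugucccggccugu
miR-25: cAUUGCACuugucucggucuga
miR-32: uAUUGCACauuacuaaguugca

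None of these 4 was called by edgeR in the reported fit, with miR-32 at an unadjusted p of 0.0144. miR-32, processed from an intron of TMEM245, had raw counts of 17 and 23 in the NT lanes and of 31, 29 and 65 in the shPLEKHA7 lanes. Its groups did not overlap, and replicate 3 of shPLEKHA7 was the highest. Its log2 fold change was 0.86 (SE 0.29, adjusted p = 0.115), and it was called without shPLEKHA7 replicate 1 (1.06, adjusted p = 0.0288), under total-count scaling (0.93, adjusted p = 0.0455) and with a replicate block (0.86, adjusted p = 0.0461). The abundant miR-92a and miR-25, of the clusters miR-17-92 and miR-106b-25, were at 0.20 (SE 0.15) and 0.11 (SE 0.13), and miR-92b was at -0.19 (SE 0.28). The fifth probe, miR-363, was above the limit in 1 lane and was not tested. Under spike-in scaling miR-92a and miR-25 turned to -0.16 and -0.23. Over both seeds, 0 of 6 tested relatives were called in the reported edgeR fit or by limma. The reported fit called 6.37% of all 204 tested probes in either direction. DESeq2 called 0 of the 5 relatives that it gave an adjusted p (miR-32 had none).

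A shift of the seed by 1 base gives AAAGUGC, the seed of miR-17, miR-20a, miR-93 and miR-106, which promote proliferation. Of 5 such probes, 4 were tested and 0 called by edgeR, with 0 at an unadjusted p under 0.05. Their log2 fold changes ran from 0.06 (miR-106b) to 0.26 (a probe that covers miR-20a and miR-20b, adjusted p = 0.245), with a median of 0.15 beside 0.06 over all 204 tested probes. The placental miR-519d was below the limit in all lanes.

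**Figure D4:**
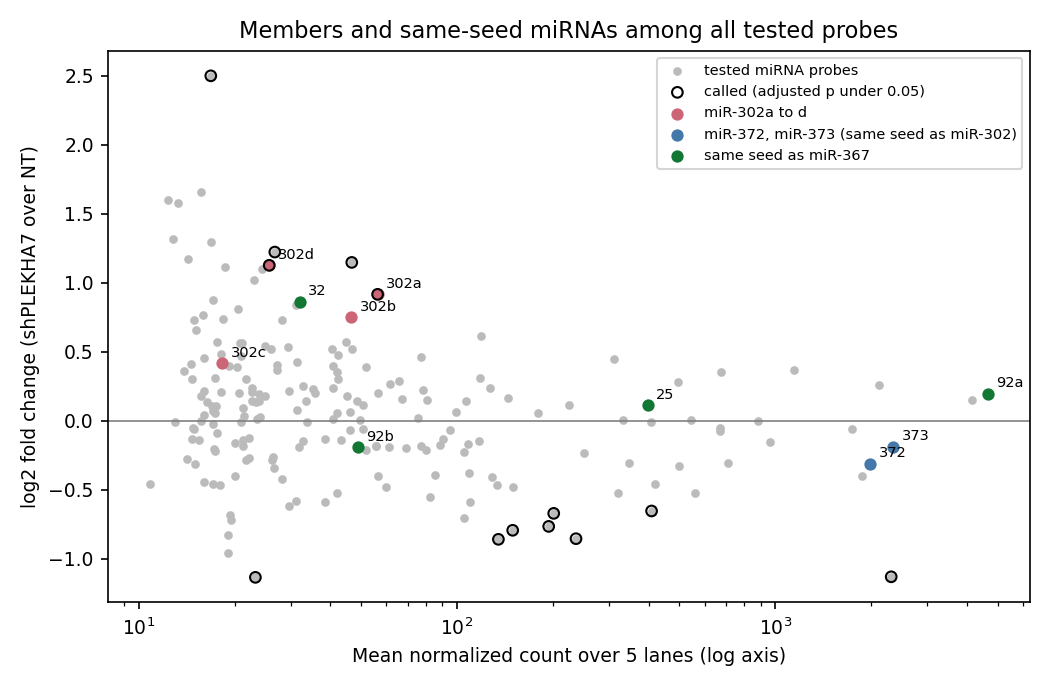
Mean normalized count over the 5 lanes (x axis, log scale) and log2 fold change of shPLEKHA7 over NT (y axis) of the 204 tested probes, with called probes ringed. miR-302a (0.92) and miR-302d (1.13) are ringed, whereas miR-372 (-0.31) and miR-373 (-0.19), which have the same seed, lie below 0 without a ring.

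Probes with the pattern most like miR-302a were ranked by the root mean square difference of their centred log2 normalized counts over the 5 lanes, among 125 other probes above the limit in every lane. The nearest was miR-1246 at 0.167, followed by the Epstein-Barr virus probe ebv-miR-BART6-5p (0.214), miR-542-3p (0.273), miR-619 (0.283) and miR-934 (0.286). The cluster's own miR-302b and miR-302d stood at 0.170 and 0.284, and the median probe at 0.514. miR-1246 had normalized counts of 96.3 and 82.7 in NT and of 136.8, 170.4 and 108.1 in shPLEKHA7 cells (log2 0.61, SE 0.21, adjusted p = 0.118). ebv-miR-BART6-5p had 35.5 and 37.6 in NT and 60.2, 60.5 and 40.1 in shPLEKHA7 cells (log2 0.52, SE 0.24, adjusted p = 0.223). This viral probe, at counts like those of miR-302a, had higher counts in all shPLEKHA7 lanes without being called. It was picked for its likeness to miR-302a, so that direction follows from the choice. Its part in the members' result was not tested. Of 15 viral probes tested, 9 were above 0 and 0 were called by edgeR, at a median of log2 0.03. At an unadjusted p under 0.05 there were 2, hcmv-miR-UL112, described beside miR-302d, and kshv-miR-K12-6-5p (log2 1.32, SE 0.54, adjusted p = 0.162), both with higher counts in all shPLEKHA7 lanes. In 5 of the 15 the groups did not overlap and shPLEKHA7 was higher, as was so for 26% of all 204 tested probes. An unadjusted edgeR p under 0.05 was found for 48 of the 204. The viral probes were looked at after the data had been seen.

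**Figure D5:**
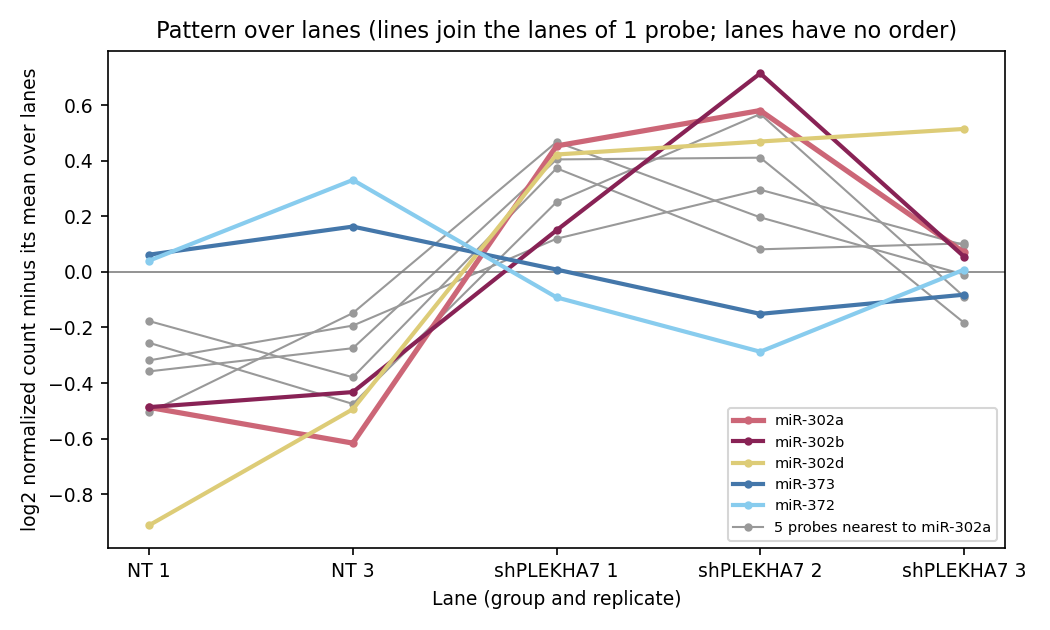
Log2 normalized count minus its mean over the lanes (y axis) in each lane (x axis) for miR-302a, miR-302b, miR-302d, miR-372, miR-373 and the 5 other probes nearest to miR-302a (grey). The miR-302a, miR-302b and miR-302d lines are below their mean in both NT lanes and above it in all shPLEKHA7 lanes. miR-302c, whose groups overlapped, is not drawn. The 5 grey probes, chosen for likeness to miR-302a, also have both NT lanes below all shPLEKHA7 lanes.

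Markers of the labelled cell type and of others were read beside the members. Of 5 intestinal epithelial miRNAs, 4 were above the limit in every lane. The summed normalized count of all 5 was 1670 to 1690 in NT and 1520 to 1750 in shPLEKHA7 cells. Only miR-215 was not above the limit in every lane, and edgeR called it higher, from NT counts below the limit (log2 1.22, SE 0.31, adjusted p = 0.048). Of 4 blood miRNAs, 1 was above the limit in every lane and 2 in none, with sums of 73.5 to 87.4 and of 77.1 to 89.4. Of 4 stromal miRNAs, 1 was above it in every lane and 2 in none, with sums of 74.3 to 91.3 and of 60.5 to 94.8. The sums of all 3 lists overlapped between the groups.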

How the data were processed

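The authors deposited raw counts per probe and lane, and a second table of normalized signal. Tested on the files, 100% of the deposited human miRNA signal values lay within 1% or 0.02 of the raw count multiplied by a factor fixed for the lane, and these factors made the geometric mean of the 5 housekeeping mRNAs equal (1802.2), while viral probes were left unscaled. RNA was total RNA from Trizol lysates, per the labels' protocols. The software is not given in the sources used here.

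From the raw counts of 734 miRNA probes (654 human, 80 viral), those above the mean plus 2 SD of the lane's negative controls in at least 2 lanes were tested (204) with edgeR 4.0.16 (R 4.3.3): TMM scaling, quasi-likelihood test, group as the only term, Benjamini-Hochberg adjustment over all tested probes. The SE was obtained by dividing the size of the log2 fold change by the square root of F. Alternatives used other scalings and filters, background subtraction with a floor of 1, DESeq2 1.42.0, limma 3.58.1 on log2 of the deposited signal plus a pseudocount of 1 (human probes), a replicate block, and leaving out each sample. The fit was tested on simulated data. The members, relatives (by RefSeq seed) and marker lists were chosen with earlier results of these data known. Named probes were the members, other miR-302 and miR-367 probes, tested relatives, the miR-371 to miR-373 cluster, and the 5 probes nearest to the member with the highest mean. The number of lanes and the low counts limit the precision.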

Additional observations from a re-analysis of the deposited data

How the results depend on the processing

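Of the 4 tested members, miR-302a and miR-302d lost their call under deposited scaling (log2 0.84 and 1.06), spike-in scaling (0.57 and 0.80), limma on the deposited values (0.83 and 1.04) and with no filter (0.74 and 0.96), and miR-302b gained one under total-count scaling (0.82). Members called went from 2 to 0 in each of those 4 settings, where 3, 1, 3 and 3 had an unadjusted p under 0.05. Over all probes tested there, 37 of 204, 53 of 204, 31 of 189 and 83 of 734 had such a p. Of the tested probes 4, 4, 5 and 1 were called higher and 2, 29, 2 and 9 lower. The number of members called was 1 when only probes above the limit in all samples were tested, which leaves 2 members. Of all 127 probes tested there, 2 were called higher. DESeq2 also called 1 member, with 2 of 204 tested probes called higher. Of the members, only miR-302a had an adjusted p in DESeq2 (miR-302d stood at 1.10, SE 0.45). With a shPLEKHA7 sample left out, members called ran from 1 to 2. Over all probes tested without replicate 1, 2 or 3, 9 of 198, 6 of 173 and 4 of 183 were called higher. With any sample left out, miR-302a ran from 0.81 to 1.07 and miR-302d from 0.96 to 1.42. A lone NT sample has no spread of its own, and the fit takes it from the other group, so calls without an NT sample are not read. Same-seed relatives called went from 0 to 1 (miR-32) under total-count scaling, with the replicate block and without shPLEKHA7 replicate 1 (range 0 to 1 over samples left out). The replicate block kept both member calls (miR-302a 0.81, miR-302d 1.13), with 10 of 204 tested probes called higher. No label states that equal numbers are pairs. Deviations of same-numbered samples correlated at 0.02 and 0.14, and those of NT replicate 1 and shPLEKHA7 replicate 2 at 0.14. With 2 NT lanes the NT deviations mirror each other (correlation -1), so these values cannot tell whether samples are paired. The miR-302d to miR-302a ratio difference turned from 0.25 to -0.022 without NT replicate 1 and reached 0.52 without NT replicate 3. The cause of these changes was not tested. Low counts limit miR-302c, miR-302d and miR-367, whose NT counts were all below the limit of detection.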

Other observations

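Viral probes give a second reading of the background in each lane, chosen after the data had been seen. At or above the count of miR-302a there were 4 and 5 of 80 viral probes in NT, and 0, 1 and 2 in the shPLEKHA7 lanes. For miR-302d these were 19 and 8 in NT and 6, 7 and 5 in the shPLEKHA7 lanes. For miR-367 they were 27 and 56 in NT and 39, 31 and 39 in the shPLEKHA7 lanes. The mean negative-control count, scaled like the members, was 7.76 and 7.05 in NT and 10.1, 6.18 and 6.43 in the shPLEKHA7 lanes, so the groups overlapped.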
